A study of Mus musculus with 4 samples.

Results

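Expression of 9 genes, of the 31053 counted in the deposited files, was followed across the cell types of the mouse kidney. They are Sgcz, Gm6213, Npas3, Akap6, Col5a2, AC149090.1, Ranbp3l, Iigp1 and Gm4841. They were selected on their measured difference between knockout and control mice in the same nuclei, either in the proximal tubule, the thick ascending limb (TAL) or the endothelium, or in most cell types. No numeric limit was part of that choice. Their differences between genotypes are therefore given as a description, and so are their levels in control mice, since a large fall needs a high control level. How many of them a model across all genes called is stated beside the share of all genes called, and again for other settings at the end. Tests are kept for how the genes beside them on the chromosome behaved, which were chosen by position. Related genes were fitted too, but their lists were drawn up with earlier results of these data known.

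In single-nucleus RNA-seq, nuclei are caught in droplets and every captured transcript receives a unique molecular identifier (UMI), which keeps PCR copies from being counted again. The control group held 2 mice that were Cre-negative and carried the Tfap2aFlox/Flox alleles, and the knockout group held 2 Hoxb7Cre+;Tfap2a fl/fl mice. All 4 were 12-week-old males, and each gave 1 library from a middle kidney slice whose cortex had been trimmed to enrich for medulla. The floxed alleles, shared by both groups, carry loxP sites around exons 5 and 6 of Tfap2a, so the controls differ from the knockout mice in Cre and not in the alleles. Hoxb7Cre recombines in the collecting duct and in the epithelium of the lower urinary tract, so most of the cell types described here lie outside the cells in which Cre is described to act.

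Tfap2a encodes AP-2 alpha, a transcription factor of ectoderm, neural crest and distal nephron epithelium. The nephron begins with the proximal tubule, which reabsorbs the bulk of filtered solutes, and continues through the thin limbs of the loop of Henle into the TAL, which takes up salt without water through the cotransporter encoded by Slc12a1. The distal convoluted tubule (DCT) and the connecting tubule follow, and the collecting duct, of a separate embryonic origin, ends the path with principal and intercalated cells. The members belong to unrelated families: a sarcoglycan of the dystrophin complex (Sgcz), a basic helix-loop-helix PAS factor (Npas3), an anchoring protein of protein kinase A (Akap6), a chain of fibrillar collagen V (Col5a2), a protein of the RAN-binding family (Ranbp3l), and 2 genes of the interferon-inducible GTPase cluster (Iigp1 and Gm4841). Gm6213 is annotated as a long non-coding RNA, and AC149090.1 has a clone-based name only.

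The libraries held 22179410 to 44964099 UMIs, and 5430 to 7997 nuclei per mouse passed the filters. Of 27341 nuclei, 25914 fell into 12 cell classes, and 7 to 18 barcodes were shared by any pair of libraries. The share of a library's UMIs that lay in nuclei ran from 48.2% to 84.3% and was highest in knockout 2, and knockout 1 stood apart in interferon-related genes, as given with Iigp1. TAL nuclei had a median of 1860 to 2014 UMIs per mouse, proximal tubule nuclei 3026 to 3696 and endothelial nuclei 1409 to 1494. Defining markers followed the class names: Slc12a1 and Umod together reached 27337 to 29595 counts per 1000000 UMIs of that class and mouse (CPM) in the TAL, Lrp2 and Slc34a1 reached 4885 to 5826 CPM in the proximal tubule, and Emcn and Flt1 reached 4518 to 5595 CPM in endothelial cells.

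The targeted gene was examined first. Tfap2a was counted 78 and 188 times in principal cells of control mice 1 and 2, and 68 and 79 times in those of knockout mice 1 and 2, which gave 57.0, 98.5, 66.0 and 106 CPM. The groups overlapped there. Reads from the 3' end lie outside the deleted exons, so these counts do not check the deletion. The paper reports that check by PCR on cDNA, in which papilla of knockout mice showed no intact Tfap2a mRNA. In the deep medullary epithelium of the pelvis, Tfap2a had 11 UMIs in each control mouse and 0 in each knockout mouse, of 33 and 31 nuclei. That difference did not pass adjustment (edgeR adjusted p = 0.586). In the classes that the members were chosen from, Tfap2a was close to absent: 3, 1, 2 and 2 UMIs in the proximal tubule of control 1, control 2, knockout 1 and knockout 2, and 3, 1, 1 and 1 in endothelial cells. The TAL held 25, 15, 12 and 18 UMIs, or 9.21, 4.95, 5.51 and 6.25 CPM, with overlapping groups. Throughout, 4 values in a row are given in this order of mice.

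**Figure D1:**
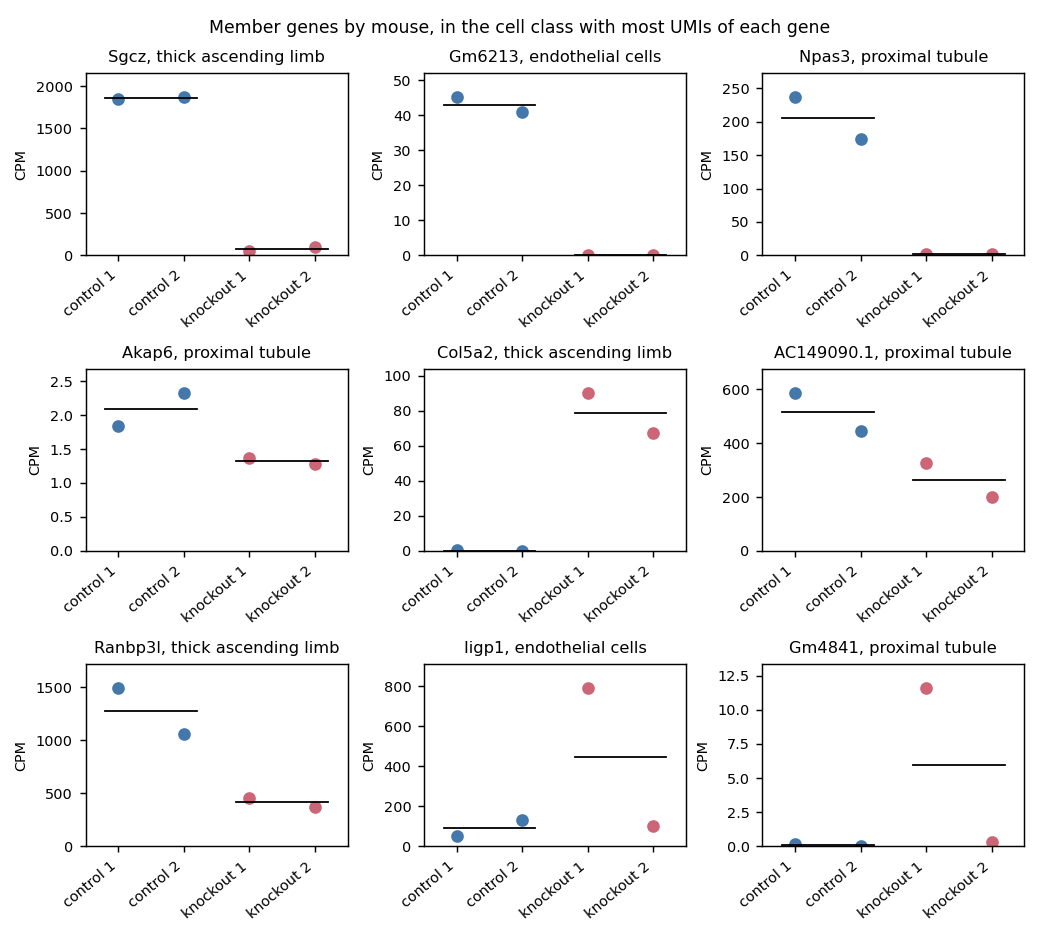
Each panel plots 1 member gene in the cell class that holds most of its UMIs, with the 4 mice on the horizontal axis and CPM on a vertical axis that starts at 0. Points are mice, blue for control and red for knockout, and horizontal lines are means of 2 mice. In the TAL, Sgcz stood at 1846 and 1872 in control mice and at 45.9 and 97.2 in knockout mice, whereas Iigp1 in endothelial cells was high in knockout 1 (790) and, at 102, lay within the control range in knockout 2.

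Sgcz (ENSMUSG00000039539) encodes zeta-sarcoglycan, a membrane-spanning subunit of the dystrophin-associated complex that ties the cytoskeleton to the basement membrane. It spans chr8:37517840-38661705 of mm10. In the TAL it gave 5011 and 5674 UMIs in control mice and 100 and 280 in knockout mice. As a level, that was 1859 ± 18.6 CPM in controls and 71.6 ± 36.3 CPM in knockout mice (SD, n = 2 each), a 26.0-fold lower level and a log2 difference of -4.70 (SE 0.41). Both knockout mice lay far below both controls.

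The share of TAL nuclei with at least 1 UMI of Sgcz was 66.2% and 72.7% in controls and 7.09% and 9.98% in knockout mice. After each nucleus was thinned to 1000 UMIs, the shares were 58.5%, 64.3%, 3.39% and 6.60%. In the proximal tubule, taken as a level of stray RNA although its nuclei were deeper, 2.60%, 2.91%, 1.57% and 2.58% of nuclei had a UMI of Sgcz. The TAL of knockout mice therefore kept a share above that level. Droplets under 100 UMIs, which hold free RNA, carried 81.5, 62.3, 47.6 and 18.5 CPM of Sgcz.

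The TAL was made of 3 clusters, the clustering of which had used Sgcz itself among other genes. In the larger cluster of 3675 nuclei, Sgcz stood at 2613, 2396, 56.1 and 128 CPM. The second cluster, of 1486 nuclei and led by Enox1 and Egf, held 173, 466, 28.4 and 23.2 CPM. Knockout mice were below controls in both clusters.

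Outside the TAL, far fewer UMIs of Sgcz were counted. In the thin limb, the counts were 65 and 297 in controls and 1 and 4 in knockout mice, or 94.3, 267, 2.29 and 6.36 CPM. Connecting tubule nuclei gave 26, 36, 3 and 4 UMIs, principal cells 54, 38, 3 and 2, intercalated cells 19, 24, 3 and 7, and DCT nuclei 9, 5, 2 and 6. The proximal tubule, with 106, 62, 71 and 88 UMIs or 8.12, 8.50, 5.11 and 7.52 CPM, came closest to equal levels. Podocytes held 22, 0, 0 and 2 UMIs, interstitial cells 2, 6, 0 and 1, the pelvic epithelium 2, 2, 0 and 0, and immune cells 1, 1, 0 and 0. Among the 9 classes in which Sgcz had the 10 UMIs needed for a fit, both knockout mice were below both controls in 8, where 14.8% of all gene and class pairs showed that order and 14.9% the reverse. Without nuclei called as doublets, that order held in 5 of the 9, with overlap in intercalated cells (2, 5, 3 and 1 UMIs), the DCT (2, 5, 1 and 6) and endothelial cells. With 10% free RNA subtracted instead, levels overlapped in the proximal tubule (0, 2.58, 0.40 and 6.24 CPM) and the DCT (12.1, 10.4, 0 and 12.6 CPM). The rest of the 8 classes kept the order. The part of stray TAL RNA in the low levels outside the TAL was not tested.

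Endothelial cells held 53, 29, 2 and 2 UMIs of Sgcz, a level of 59.9, 51.5, 2.71 and 4.64 CPM. In control 1, 37 of the 53 UMIs came from 5 nuclei. Without nuclei called as doublets, the counts were 2, 11, 2 and 2, and control 1 no longer stood above the knockout mice. The TAL markers Slc12a1 and Umod together stood at 1674, 1649, 1603 and 1149 CPM in endothelial cells of the 4 mice, and their part in the Sgcz level there was not tested.

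Gm6213 (ENSMUSG00000109827) lies on the same chromosome at chr8:39297980-39368268, 636274 bases beyond Sgcz with 5 annotated genes between them. Endothelial cells were its main site, with 40 and 23 UMIs in controls and 0 in both knockout mice. In control endothelium that was 45.2 and 40.8 CPM. A UMI was found in 32 of 516 and 17 of 356 endothelial nuclei of controls, against 0 of 444 nuclei of knockout 1 and 0 of 268 of knockout 2, which allow shares of up to 0.676% and 1.12% by a limit of 3 nuclei. Against that same limit of 3 UMIs per library, Gm6213 was at least 8.39-fold lower in knockout endothelium.

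Leaving out called doublets changed these endothelial counts to 35, 23, 0 and 0. In the main endothelial cluster alone, Gm6213 stood at 62.8 and 58.5 CPM in controls and at 0 in knockout mice. The order turned in the proximal tubule, where the few UMIs numbered 1, 1, 3 and 5. No more than 0.119% of proximal tubule nuclei had one in any mouse. The TAL held 2, 5, 0 and 3 UMIs, interstitial cells 4, 0, 0 and 0, immune cells 0, 0, 0 and 2, the DCT 0, 1, 0 and 0, and the thin limb 0, 0, 0 and 1. None was counted in the other 5 classes.

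Npas3 (ENSMUSG00000021010), a basic helix-loop-helix PAS factor best known from the developing brain, spans chr12:53248026-54072173. In the proximal tubule it gave 3096 and 1274 UMIs in controls and 21 and 23 in knockout mice. Levels were 237 and 175 CPM against 1.51 and 1.97 CPM, a 118-fold lower mean and a log2 difference of -6.91 (SE 0.29). Both knockout mice lay far below the lower of the controls.

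The share of proximal tubule nuclei with a UMI of Npas3 was 42.8% and 37.0% in controls and 0.454% and 0.416% in knockout mice. Thinned to 1000 UMIs, it was 19.9%, 13.9%, 0.139% and 0.211%. In the TAL, which has little of this gene, 0.229%, 0.415%, 0.368% and 0.370% of nuclei had a UMI at a lower depth, close to the share in knockout proximal tubule. Free RNA held 33.7, 14.0, 4.76 and 1.95 CPM, lower in knockout mice, whereas the TAL share was not. The TAL share is therefore no sure level of stray RNA, and the source of the UMIs left in knockout proximal tubule was not tested.

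All 6 clusters of the proximal tubule showed the same order. Their levels ran from 108 to 290 CPM in control mice and from 0 to 6.0 CPM in knockout mice. The difference was thus not carried by 1 segment. Thin limb nuclei also held less in knockout mice, with 44, 29, 3 and 7 UMIs or 63.8, 26.0, 6.87 and 11.1 CPM. The proximal markers Lrp2 and Slc34a1 summed to 979, 531, 1758 and 1125 CPM there, and the part of proximal RNA in these thin limb levels was not tested.

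Interstitial cells kept Npas3 in both genotypes. Their counts were 12, 12, 3 and 6, and their levels of 69.3, 83.2, 31.4 and 84.8 CPM overlapped. Endothelial cells gave 19, 13, 14 and 3 UMIs, which is 21.5, 23.1, 18.9 and 6.96 CPM, with both knockout mice below but knockout 1 close to the controls. In the connecting tubule, 23 UMIs came from control 1 and 1, 0 and 1 from the other mice. Podocytes held 7, 1, 0 and 3 UMIs, principal cells 9, 9, 0 and 4, intercalated cells 1, 4, 0 and 0, the TAL 3, 6, 4 and 5, the pelvic epithelium 3, 0, 0 and 0, the DCT 2, 0, 0 and 0, and immune cells 0, 1, 0 and 0. Of 8 classes with enough UMIs, 4 had both knockout mice below both controls. Leaving out called doublets made that 3: the connecting tubule then held 0 UMIs in every mouse, endothelial levels of 16.8, 15.8, 22.2 and 7.90 CPM overlapped, and interstitial levels of 61.5, 70.3, 50.5 and 15.9 CPM no longer did.

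Akap6 (ENSMUSG00000061603) lies next to Npas3 at chr12:52698588-53155568, 92457 bases away with 0 genes between them in the annotation. Its product anchors protein kinase A at the nuclear envelope of muscle cells. Counts were low. The proximal tubule gave 24, 17, 19 and 15 UMIs, or 1.84, 2.33, 1.37 and 1.28 CPM, a log2 difference of -0.64 (SE 0.36), small beside that of Npas3 in the same nuclei.

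Endothelial cells had 12 and 10 UMIs of Akap6 in controls and 0 in both knockout mice, at least 3.05-fold lower by the limit of 3 UMIs. The TAL ran the other way with 2, 4, 7 and 7 UMIs, a log2 difference of 1.37 (SE 0.67). Interstitial cells showed 0, 10, 2 and 0, so that a single control mouse held most. The DCT gave 3, 3, 1 and 3 UMIs, the connecting tubule 3, 4, 0 and 1, principal cells 1, 2, 1 and 2, the pelvic epithelium 0, 2, 1 and 1, and the 4 classes left held at most 1 UMI in any mouse. The low counts leave the direction in most classes undetectable.

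Col5a2 (ENSMUSG00000026042) encodes the alpha 2 chain of collagen V, a fibril-forming collagen that fibroblasts secrete. It lies at chr1:45374331-45503282. TAL nuclei had 1 and 0 UMIs of it in controls and 197 and 194 in knockout mice, or 0.368, 0, 90.4 and 67.4 CPM. With 1 UMI in all control TAL nuclei, the ratio of UMI rates was 444 with a 95% counting interval from 79.3 to 17591. Counting intervals and limits cover counting error alone.

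The share of TAL nuclei with a UMI of Col5a2 was 0.0764% in control 1, 0% of 1447 nuclei in control 2 (up to 0.207%), and 8.66% and 7.98% in knockout mice. After thinning, it was 0.0786%, 0%, 5.37% and 5.10%. The proximal tubule, deeper and with little of this gene, had UMIs in 0.123%, 0.102%, 0.272% and 0.238% of its nuclei. Free RNA held 3.02 to 11.7 CPM.

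Both larger TAL clusters took part. In the second cluster, Col5a2 stood at 0 in both controls and at 199 and 173 CPM in knockout mice. The larger cluster had 0.537, 0, 26.6 and 24.5 CPM. The DCT, which adjoins the TAL, held 0 UMIs in both controls and 38 and 51 in knockout mice, at least 12.1-fold more by the limit of 3 UMIs. In DCT nuclei of knockout mice, 10.9% and 14.8% had a UMI, against 0 of 212 and 0 of 136 in controls, which allow up to 1.42% and 2.21%.

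In the classes that held most Col5a2 in controls, no such order was seen. Interstitial cells gave 21, 29, 6 and 15 UMIs, or 121, 201, 62.8 and 212 CPM, and endothelial cells gave 20, 12, 9 and 14, or 22.6, 21.3, 12.2 and 32.5 CPM. The groups overlapped in both classes. The connecting tubule held 2, 0, 11 and 3 UMIs and the proximal tubule 5, 5, 12 and 8. Thin limb nuclei gave 2, 0, 0 and 2, the pelvic epithelium 0, 0, 0 and 3, intercalated cells 0, 0, 0 and 2 and principal cells 0, 0, 1 and 0, while immune cells and podocytes had none. Of 6 classes with enough UMIs, both knockout mice were above both controls in 3, the TAL, the DCT and the connecting tubule. Without called doublets the connecting tubule held 1, 0, 0 and 1 UMIs and lost that order, while the proximal tubule, at 4, 1, 11 and 7 UMIs, gained it.

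**Figure D2:**
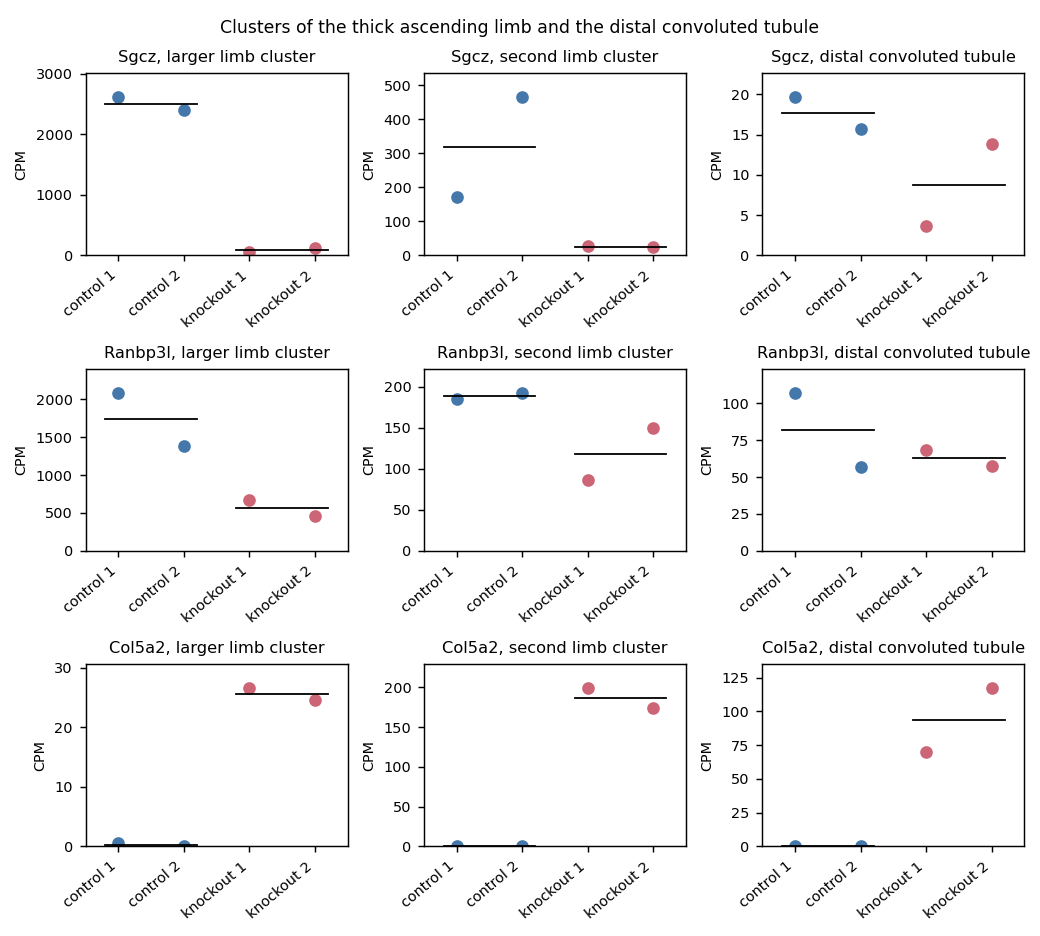
Sgcz (top row), Ranbp3l (middle) and Col5a2 (bottom) are plotted by mouse in the 2 large clusters of the thick ascending limb and in the distal convoluted tubule, as CPM on axes that start at 0; blue points are control mice, red points knockout mice and lines means of 2 mice. Knockout points of Col5a2 lay at 199 and 173 in the second limb cluster and at 70.0 and 117 in the distal convoluted tubule, with controls at 0 in both, whereas Ranbp3l overlapped between genotypes in the distal convoluted tubule.

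Ranbp3l (ENSMUSG00000048424), a RAN-binding protein described as an exporter of SMAD proteins from the nucleus, lies at chr15:8967949-9067335. It was lower in knockout mice in a large part of the epithelium. TAL nuclei gave 4050, 3218, 995 and 1078 UMIs, or 1492, 1062, 457 and 374 CPM, a 3.07-fold lower mean and a log2 difference of -1.63 (SE 0.28). Principal cells of the collecting duct, where Hoxb7Cre is active, gave 1312, 1873, 467 and 371 UMIs. Their levels of 958 and 981 CPM in controls and 453 and 500 CPM in knockout mice did not overlap. Principal cells numbered 338, 485, 272 and 205 nuclei, and 232, 248, 127 and 118 of them lay in a cluster led by Aqp2 and Aqp4. Knockout mice also gave fewer nuclei of thin limb (254, 448, 164 and 220), pelvic epithelium (66, 93, 33 and 31) and interstitial cells (84, 71, 53 and 31). In the connecting tubule they gave more (199, 121, 309 and 200). The part of the tissue sampled in these levels was not tested.

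In the thin limb, 651, 1180, 127 and 216 UMIs gave 944, 1059, 291 and 343 CPM. Intercalated cells showed the widest gap, 6.07-fold, from 88, 124, 15 and 18 UMIs, and the pelvic epithelium gave 220, 259, 42 and 39. Interstitial cells, which are not epithelial, held 89, 112, 24 and 13 UMIs or 514, 776, 251 and 184 CPM. Connecting tubule nuclei gave 74, 68, 42 and 50 and endothelial cells 87, 46, 26 and 16 UMIs. In all these classes both knockout mice lay below both controls, 8 of the 11 classes with enough UMIs. Without called doublets 7 kept that order, and the connecting tubule, at 37.8, 124, 27.6 and 86.1 CPM, did not.

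The proximal tubule, the largest class, did not share this order. Ranbp3l gave 2798, 1187, 2491 and 1861 UMIs there, and the levels of 214, 163, 179 and 159 CPM overlapped, with a mean 1.11-fold lower in knockout mice. The DCT gave 49, 18, 37 and 25 UMIs and podocytes 7, 3, 0 and 6, also with overlap. Immune cells held 1, 1, 0 and 0. In the TAL, the larger cluster had 2088, 1381, 677 and 459 CPM and the second cluster 185, 193, 86.6 and 150 CPM.

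Shares of nuclei with a UMI of Ranbp3l told the same in the TAL, with 70.1%, 68.4%, 40.6% and 39.4%, or 58.3%, 53.2%, 29.6% and 25.1% after thinning. In principal cells the shares were 79.3%, 82.3%, 51.1% and 57.6%. Those of the proximal tubule were 45.2%, 40.9%, 39.6% and 38.2%. The proximal tubule is no background for this gene, since its share was over 30% in every mouse; in immune cells, a UMI was found in 1 nucleus of each control and in none of the knockout mice.

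As Ranbp3l was lower also in principal cells, where Tfap2a is expressed and Cre is active, the 250 bases before its start in RefSeq are shown (GRCm38.p6, chr15:8967699-8967948, plus strand, 48.8% G and C).

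Ranbp3l: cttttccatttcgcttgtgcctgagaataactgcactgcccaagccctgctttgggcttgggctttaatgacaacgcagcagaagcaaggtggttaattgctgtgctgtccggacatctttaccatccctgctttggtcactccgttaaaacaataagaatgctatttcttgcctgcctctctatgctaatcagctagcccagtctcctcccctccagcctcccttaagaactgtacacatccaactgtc

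The AP-2 core GCCNNNGGC, which reads the same on both strands and overlaps no other motif searched, was not among these letters, so nothing is capitalised. It was present in 4509 of 32851 promoter windows of that length in the table, or 13.7%. Promoters were matched for 3 of the 9 members, and the windows of Npas3 and Akap6 held no match either. Those 2 windows (chr12:53248182-53248431 and chr12:52699133-52699382) lie inside the gene spans given above and not before them. The absence of a match says only that these letters are not in these windows.

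AC149090.1 (ENSMUSG00000095041) had both knockout mice below both controls in 11 of 12 classes and a lower mean in all 12. In the proximal tubule it gave 7681, 3236, 4554 and 2326 UMIs, or 589, 444, 328 and 199 CPM, and in the TAL 1432, 1110, 555 and 153 UMIs, or 527, 366, 255 and 53.1 CPM. The mean of controls over that of knockout mice ran from 1.53 in immune cells to 3.78 in podocytes. Log2 differences ran from -1.92 to -0.60, with a median of -1.37.

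Knockout 2 held the lowest level in 11 of the 12 classes. Endothelial cells gave 237, 111, 92 and 25 UMIs, principal cells 355, 469, 164 and 42, intercalated cells 220, 212, 125 and 36, and connecting tubule nuclei 322, 111, 214 and 38. The DCT gave 269, 128, 140 and 26, the thin limb 249, 365, 87 and 44, the pelvic epithelium 89, 189, 25 and 19, interstitial cells 68, 34, 20 and 4, and podocytes 48, 20, 12 and 3. Immune cells, with 4, 17, 12 and 4 UMIs, were the class whose groups overlapped. The share of proximal tubule nuclei with a UMI was 81.1%, 76.1%, 60.3% and 44.7%, or 44.3%, 34.5%, 27.5% and 16.9% after thinning. No class lacked the gene, so no background share could be given.

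Iigp1 (ENSMUSG00000054072, chr18:60373616-60392634) encodes an immunity-related GTPase that interferons induce and that acts on the vacuoles of intracellular pathogens. Its endothelial counts were 47 and 73 in controls, 584 in knockout 1 and 44 in knockout 2, or 53.1, 130, 790 and 102 CPM. Nuclei with a UMI made up 7.17%, 15.2%, 52.7% and 13.1%, or 4.17%, 10.9%, 46.0% and 9.21% after thinning. Knockout 1 alone stood above the controls. The fitted log2 difference of 2.39 (SE 0.65) was 0.19 without knockout 1 and 3.21 without knockout 2.

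The same mouse stood apart in other classes. The proximal tubule held 16, 2, 525 and 26 UMIs of Iigp1, or 1.23, 0.274, 37.8 and 2.22 CPM. A pair of its clusters, both led by genes of the proximal convoluted segment such as Slc5a12, held 201 and 172 of the 525 UMIs of knockout 1. The thin limb gave 1, 0, 30 and 5, interstitial cells 3, 9, 25 and 0, the TAL 1, 0, 22 and 0, principal cells 1, 21, 21 and 0, and the pelvic epithelium 0, 7, 17 and 0. Connecting tubule nuclei held 0, 0, 8 and 0, the DCT 0, 0, 4 and 0, intercalated cells 3, 2, 3 and 0, podocytes 0, 0, 2 and 0, and immune cells 0, 0, 1 and 0. Of 7 classes with enough UMIs, both knockout mice were above both controls in 2.

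Gm4841 (ENSMUSG00000068606, chr18:60268301-60273267), a predicted gene of the same GTPase cluster 100348 bases from Iigp1, followed the same mouse. The proximal tubule gave 2, 0, 161 and 4 UMIs, endothelial cells 2, 1, 27 and 3, principal cells 3, 0, 19 and 1, the thin limb 0, 0, 7 and 2 and the TAL 1, 0, 4 and 1. The other 7 classes held 0 UMIs in control mice and in knockout 2, and 1 to 3 in knockout 1. Of 167 UMIs in the proximal tubule, 161 came from knockout 1. Knockout 2 held at most 4 UMIs in any class.

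**Figure D3:**
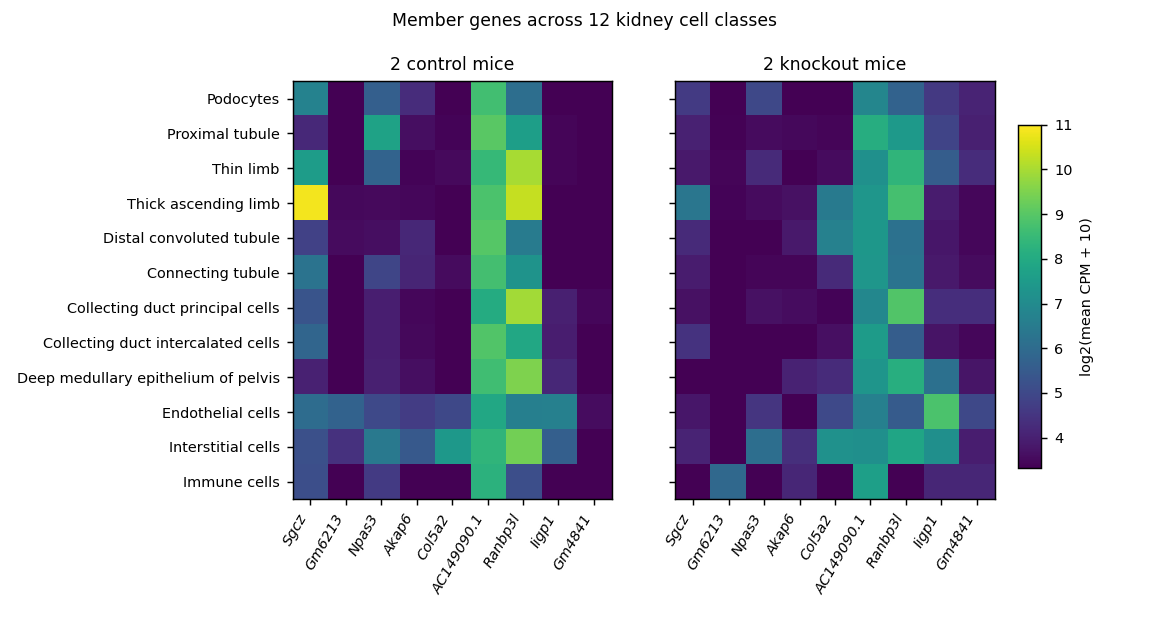
The 9 members are shown across 12 cell classes as log2(mean CPM + 10), with the mean of the 2 control mice in the left panel and of the 2 knockout mice in the right panel; yellow is high and dark purple is 0. The cells of Sgcz in the thick ascending limb and of Npas3 in the proximal tubule are bright in controls and darker in knockout mice, the reverse holds for Col5a2 in the thick ascending limb, and the column of AC149090.1 is darker in knockout mice in each of the 12 classes.

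The background of these differences was small by the model across all genes and large by the order of the mice. In edgeR's quasi-likelihood test over the TAL, 2 of 14768 genes (0.0135%) had an adjusted p under 0.05, and these were Sgcz and Col5a2. In endothelial cells 2 of 12511 genes (0.016%) did, Sgcz and Gm6213, and in the proximal tubule 1 of 17766 (0.00563%), Npas3. Of the 9 members in their own main class, 4 were among these, and since the members were chosen on this contrast nothing is read from that count. Without nuclei called as doublets, 1 of 12019 endothelial genes was called, Gm6213, and Sgcz was no longer called there. In the TAL, 15% of genes had both knockout mice below both controls and 14.7% both above. The shares were 17.3% and 13.2% in endothelial cells and 13.9% and 16.4% in the proximal tubule.

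Levels in control mice were compared between classes as a description, since the choice of members drew on control levels and the classes came from clusters of the same expression values. The log2 difference sets the fitted level of a class, from an edgeR fit to the class sums of both controls that allows for the mouse, against the average over the remaining 11 classes.

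Sgcz was highest in the TAL at 1859 ± 18.6 CPM (SD, n = 2), a log2 difference of 5.93 (SE 0.13). The thin limb followed at 180 ± 122 CPM without overlap, and below it podocytes, connecting tubule, endothelial and intercalated cells overlapped each with the next.

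Npas3 was highest in the proximal tubule at 206 ± 44.2 CPM (log2 4.59, SE 0.17). Interstitial cells at 76.2 ± 9.83 CPM came next, without overlap. From the thin limb at 44.9 ± 26.7 CPM down, each class overlapped with the next.

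Gm6213 led in endothelial cells at 43.0 ± 3.11 CPM (log2 7.38, SE 0.66), and interstitial cells at 11.5 ± 16.3 CPM rested on 1 mouse. Iigp1 also led in endothelial cells at 91.4 ± 54.1 CPM (log2 6.66, SE 0.45) but overlapped with interstitial cells at 39.9 ± 31.9 CPM. Gm4841 had too few UMIs in controls for a fit and reached 2.02 ± 0.344 CPM in endothelial cells. It had 3 UMIs there over both controls, and the levels overlapped with those of principal cells, which also held 3.

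Col5a2 led in interstitial cells at 161 ± 56.4 CPM (log2 8.70, SE 0.63), with endothelial cells next at 22.0 ± 0.926 CPM and no overlap. The epithelial classes of control mice held at most 1.65 CPM of it on average. Akap6 led in interstitial cells at 34.7 ± 49.0 CPM (log2 3.73, SE 0.89), all of it from control 2, and without control 2 the log2 difference was -1.0. It overlapped with endothelial cells at 15.7 ± 2.96 CPM.

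Ranbp3l led in the TAL at 1277 ± 304 CPM (log2 2.76, SE 0.15). Thin limb at 1002 ± 80.9 and principal cells at 969 ± 16.1 CPM followed, the latter pair overlapping. AC149090.1 had the flattest pattern, from 516 ± 102 CPM in the proximal tubule to 232 ± 50.1 CPM in endothelial cells with each class overlapping the next, and its log2 difference in the proximal tubule was 0.97 (SE 0.15).

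Genes with the most similar pattern over the 12 classes of control mice were found by Pearson's r of log2(mean CPM + 10) among 14704 genes, as a description over points that share 2 libraries. For Sgcz these were Ppp1r1b (r = 0.935), Slc12a1 (0.933) and Gm14002 (0.920), and Slc12a1 is the salt cotransporter of the TAL. For Npas3 they were Alpl (0.936), Gm19950 (0.928) and Utp20 (0.927). For Gm6213 they were Crispld1 (0.996), Adcy4 (0.992) and Aplnr (0.991), the last the apelin receptor of endothelium.

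Col5a2 was most like Snai1 (0.998) and Gm16141 (0.997), and Akap6 most like Mfge8 (0.909), Kcnj8 (0.898), a potassium channel subunit of pericytes, and Rc3h2 (0.896). Iigp1 was most like Dhx58 (0.982), an interferon-inducible RNA sensor, Htr2a (0.982) and Timeless (0.982). For Ranbp3l the closest were 9430060I03Rik (0.910), 9330020H09Rik (0.903) and Cep19 (0.893), for AC149090.1 Sfxn2 (0.878), Leng8 (0.871) and Dera (0.860), and for Gm4841 Gm16897 (0.921), Gm9984 (0.915) and Reep1 (0.896).

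Of the members, 3 pairs lie close together on chromosomes 8, 12 and 18, so the genes around each member were tested as well, chosen by position and not by value. For each of the 8 members with a position, the 5 nearest tested genes on each side were read in the member's main class. Of these 70 distinct genes and classes, edgeR called 0 at an adjusted p under 0.05, where it called 0.0135%, 0.016% and 0.00563% of all genes in the 3 classes. At an unadjusted p under 0.05 there were 8 of the 70 by edgeR, where 3.05% of all genes in the TAL, 3.8% in endothelial cells and 3.51% in the proximal tubule had one. DESeq2 also called 0 after adjustment, and at an unadjusted p under 0.05 it had 3 of the 70. Within 5 Mb, a window chosen after the data were seen, 0 of 273 distinct genes were called. Since so few of all genes were called, the lack of calls cannot show that the genes around the members were unchanged.

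Beside Sgcz in the TAL, AI429214 had a log2 difference of 0.53 (SE 0.52) and Tusc3, an oligosaccharyltransferase subunit 344 kb away, of 0.06 (SE 0.21). Tusc3 was also the nearest gene before Gm6213, and in endothelial cells it stood at 0.38 (SE 0.33), while Msr1, the macrophage scavenger receptor on the other side, stood at 0.77 (SE 0.49). None of these genes next to the 2 members was called, in classes where hardly any gene was. Col3a1, a collagen gene 24.6 kb from Col5a2, had 5, 2, 3 and 2 UMIs in the TAL and a log2 difference of -0.30 (SE 0.89). Wdr75 on the other side had -0.23 (SE 0.27).

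Around Npas3 and Akap6, both flanking genes were lower in the proximal tubule but rare. The nearest before Npas3 and Akap6, 1700031P21Rik, had 8, 7, 2 and 0 UMIs, a log2 difference of -3.13 (SE 0.94) and an unadjusted p of 0.018 (edgeR adjusted p = 1.00). The nearest after, 1700030L22Rik, had 8, 3, 0 and 0 UMIs. It lies within the span of Npas3, and how the counting treated overlapping genes and strand is not given in the sources used here, so its reads and those of Npas3 cannot be told apart. Egln3, the next gene after it, a prolyl hydroxylase of the hypoxia response, had a log2 difference of 0.07 (SE 0.68).

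Next to Ranbp3l in the TAL, both flanking genes were lower too, without passing adjustment. Slc1a3, a glutamate transporter, had 53, 82, 26 and 39 UMIs and a log2 difference of -0.88 (SE 0.29). Nadk2, the mitochondrial NAD kinase 3.92 kb away, had 351, 246, 161 and 161 UMIs and -0.71 (SE 0.28). Their unadjusted p-values in edgeR were 0.019 and 0.0392.

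Around Iigp1 and Gm4841, the nearest genes belong in part to the same GTPase cluster. In endothelial cells, F830016B08Rik had 0, 6, 10 and 2 UMIs and Dctn4, a dynactin subunit, a log2 difference of -0.03 (SE 0.30). In the proximal tubule, Gm4951 had 3, 3, 9 and 0 UMIs and F830016B08Rik 2, 1, 13 and 1. Knockout 1 held the most UMIs of each of these GTPase genes, as it did of Gm4951 in endothelial cells, at 1, 67, 115 and 24. Control 2 was also high there, from 563357 endothelial UMIs against 739026 in knockout 1.

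**Figure D4:**
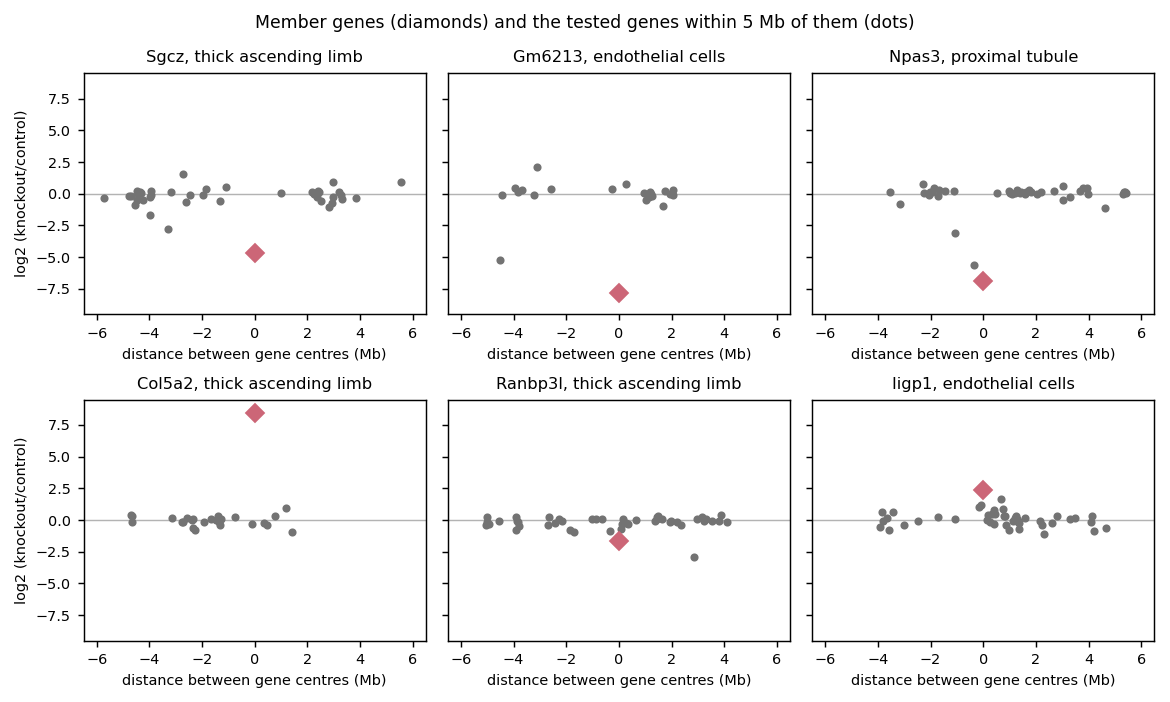
For 6 members, the log2 difference between knockout and control mice in the member's main class (vertical axis) is plotted against the distance between gene centres in megabases (horizontal axis); the red diamond is the member and grey dots are tested genes within 5 Mb. Diamonds of Sgcz, Npas3 and Col5a2 stand at -4.70, -6.91 and 8.47, and the dots lie mostly near 0. The lowest dots stand at -5.65 in the panel of Npas3, -5.21 in that of Gm6213, -2.89 in that of Ranbp3l and -2.78 in that of Sgcz.

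Related genes of each family were read from lists, with the members left out. As the lists were drawn up with earlier results of these data known, their counts are a description. Over 171 pairs of a gene and a class, edgeR called 0 at an adjusted p under 0.05 (all genes: 0.0135% in the TAL, 0.016% in endothelial cells, 0.00563% in the proximal tubule and 0% in interstitial cells). At an unadjusted p under 0.05 there were 30 (all genes: 3.05%, 3.8%, 3.51% and 3.34%, in the same order), 17 of them on the interferon list in endothelial cells. DESeq2 called 0 after adjustment and had 18 of the 171 at an unadjusted p under 0.05. Since no list gene was called, those named were chosen after their values were seen, most by an unadjusted p under 0.05.

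Of 16 tested genes of the dystrophin and sarcoglycan complex, the partners of Sgcz, 2 had an unadjusted p under 0.05 in the TAL: Dtnb, encoding beta-dystrobrevin, at 950, 1152, 408 and 702 UMIs (log2 -0.77, SE 0.23), and Nos1 at 20, 18, 26 and 37 (log2 0.89, SE 0.33). The list's median was 0.06 against 0.00 over all TAL genes. No tested partner had a log2 difference beyond that of Nos1 in size. Nos1 was among the leading genes of the smallest TAL cluster, of 34 nuclei (6, 9, 7 and 12 by mouse). The part of those nuclei in the Nos1 difference was not tested.

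Among 15 tested bHLH-PAS genes in the proximal tubule, 3 had an unadjusted p under 0.05. Npas2, a relative of Npas3 by structure, was at 399, 319, 205 and 227 UMIs (log2 -1.13, SE 0.25). Arntl, a partner of Npas2, was at 307, 212, 171 and 177 (log2 -0.95, SE 0.20). Per2, a repressor of such pairs, was at 461, 272, 808 and 1604 (log2 1.40, SE 0.40). Both knockout mice lay on the same side of both controls for each of the 3. Of their relatives on the list, Clock stood at -0.09 (SE 0.15) and Per1 at 1.06 (SE 0.48), neither with an unadjusted p under 0.05. The list's median was 0.01 against 0.02 over all genes tested.

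Of 23 A-kinase anchoring proteins and partners in the proximal tubule, 1 had an unadjusted p under 0.05, Prkar2b, a regulatory subunit of protein kinase A (log2 -0.79, SE 0.29), and the median was 0.02. Of 8 collagens and partners tested in the TAL, 1 did, Plod2, a lysyl hydroxylase of collagen, with 222, 236, 96 and 137 UMIs (log2 -0.81, SE 0.20). Both knockout mice were above both controls for 2 of these 8, collagens and partners together, against 14.7% of all TAL genes, and the median was 0.07. The collagen genes among them were Col3a1, Col11a1 at 0.14 (SE 0.73) and Col27a1 at 0.82 (SE 0.43).

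In interstitial cells, 12 collagen genes and partners were tested and 2 had an unadjusted p under 0.05, Lum with 0, 1, 1 and 27 UMIs and Dcn with 68, 40, 24 and 114. Both small proteoglycans stood highest in knockout 2, which had 31 interstitial nuclei. Of 23 genes of BMP and SMAD signaling and RAN transport in the TAL, the group nearest to Ranbp3l, 2 had an unadjusted p under 0.05. Smad6, an inhibitor of BMP signaling, had 361, 526, 169 and 227 UMIs (log2 -0.98, SE 0.22), and Id1, a BMP target, had 18, 20, 6 and 5 (log2 -1.58, SE 0.49). Both were below controls in both knockout mice, while the median of the list was 0.00.

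The interferon list held 50 genes, of which 39 were tested in endothelial cells and 35 in the proximal tubule. In endothelial cells 17 of 39 had an unadjusted p under 0.05 (3.8% of all genes), both knockout mice were above both controls for 9 and below for 1 (13.2% and 17.3% of all genes), and the median log2 difference was 0.98 against 0.00 over all genes. For 30 of the 39 (76.9%), knockout 1 was the highest of the 4 mice, as it was for 21.7% of all genes. Of the 35 in the proximal tubule, 2 had an unadjusted p under 0.05 (3.51% of all genes), knockout 1 was highest for 23 of 35 (65.7%, against 24.6% of all genes), and the median was 0.13.

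Named examples followed that mouse. In endothelial cells, Tap1, the peptide transporter of antigen presentation, had 14, 14, 91 and 6 UMIs, and Irgm2, a regulator of the GTPases, had 23, 26, 127 and 18. Psmb8, an immunoproteasome subunit, had 89, 57, 271 and 61. In each, knockout 1 stood apart and knockout 2 lay near the controls in UMIs.

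Summed over 49 genes of the list found in the files, endothelial levels were 3077, 4642, 7038 and 4639 CPM, so knockout 2 was close to control 2. In podocytes the sums were 1359, 1466, 5978 and 1200 CPM and in the proximal tubule 540, 582, 744 and 513 CPM. The 7 immune cell markers examined (Ptprc, Cd74, C1qa, C1qb, Csf1r, Cd3e and Cd79a) summed to 156, 245, 433 and 225 CPM in endothelial cells. They too were highest in knockout 1, and their part in the interferon values was not tested. Cd74 among them is itself induced by interferon gamma.

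**Figure D5:**
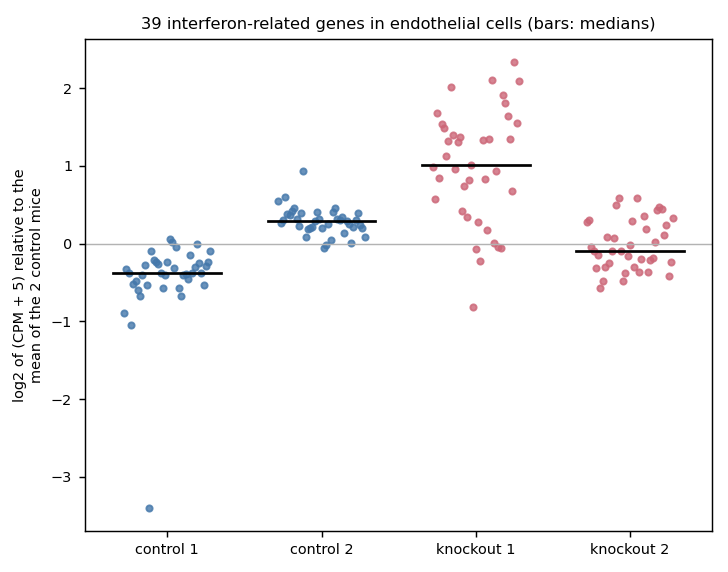
Each dot is 1 of 39 interferon-related genes in endothelial cells, placed by mouse on the horizontal axis and by log2 of (CPM + 5) relative to the mean of the 2 control mice on the vertical axis; blue is control, red is knockout and bars are medians. Medians were -0.37, 0.30, 1.02 and -0.09, so that knockout 1 stood above and knockout 2 lay between the control mice.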

How the data were processed

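Kidney nuclei of 2 control and 2 knockout mice were analysed, 1 library per mouse. The deposited matrices hold raw UMI counts per gene and barcode, which the authors made with 10x Genomics 3' v3.1 chemistry, Cell Ranger 3.0.2 and mm10, empty droplets included; whether introns were counted, and the gene annotation, are not given in the sources used here. The members and lists were chosen with earlier results of these data known.

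Nuclei were taken from the 10000 richest barcodes per library where gene numbers lay between 500 and 4000 and mitochondrial UMIs below 5%. Seurat 5.3.0 (R 4.3.3) integrated and clustered the nuclei (2000 variable genes, 30 dimensions, resolution 0.5). Clusters were named from marker lists, and 1427 damaged or mixed nuclei were left out; clusters that mixed classes were split at resolution 0.8, which gave the interstitial cells, a part of the endothelial cells and 233 nuclei of the thin limb. The marker limits behind the names were set after the clusters were seen. Doublets were called in 479, 236, 512 and 305 nuclei and kept, except in an alternative.

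UMIs were summed per mouse and class. Genes reaching 10 UMIs in total entered edgeR 4.0.16 (quasi-likelihood, TMM, genotype alone), with Benjamini-Hochberg adjustment over all genes of the class. With 2 mice against 2, exact permutation tests cannot reach 0.05, so p-values rest on that model. The test was checked on simulated data. Levels are CPM (UMIs of the gene per 1000000 UMIs of the class and mouse), not corrected for length and not compared between genes. Alternatives were DESeq2 1.42.0, other filters and scalings, a replicate block, each mouse left out, other clusterings, doublets left out and free RNA subtracted.

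Named genes were the members, Tfap2a, the 3 genes most alike over classes (at least 10 CPM in 1 class; 1 of them is not reported here), and called neighbours or list genes or, where none was called, the nearest neighbour on each side. Positions and promoters came from RefSeq (GRCm38.p6), with 25166 of 31053 genes placed. AC149090.1 was not placed there.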

Additional observations from a re-analysis of the deposited data

Results flagged for a closer look

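A handful of member values went against a member's own main direction or appeared in nuclei and droplets outside the 12 classes. Gm6213, which had no UMI in knockout endothelium, showed a log2 difference of 1.55 in the proximal tubule, from 1, 1, 3 and 5 UMIs in control 1, control 2, knockout 1 and knockout 2. Akap6 had a log2 difference of 1.37 in the TAL, against -0.64 in the proximal tubule and lower counts in endothelial cells. Whether these effects differ between classes was not tested.

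Nuclei left out as mixed held 3, 0, 10 and 10 UMIs of Col5a2, the lower knockout mouse at 18.9 CPM. They held 0, 1, 63 and 3 UMIs of Iigp1 and 0, 0, 7 and 3 of Gm4841, the lower knockout mouse at 5.66 CPM for each. In droplets under 100 UMIs, which hold free RNA, the lower knockout mouse had 3.97 CPM of Col5a2 and 1.63 CPM of Akap6, above both control mice. These differences were not tested. Groups of 2 mice are too small to single out a mouse by a rule for outlying values.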

How the results depend on the processing

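Of the 9 members, 4 were called in their main class. That count was 2 without control 1, 1 without control 2, 0 with 10% free RNA subtracted and 0 with all nuclei summed without classes, and 3 to 6 otherwise (1 to 4 over each mouse left out); fewer genes or samples enter some of these fits, and the cause was not tested further. Under all 133 refits the members kept their direction, though Iigp1 in endothelial cells came down to a log2 difference of 0.19 without knockout 1. The members were chosen on this difference in the same nuclei, so nothing is read from that or from these counts. Calls among neighbours, 0 here, ran from 0 to 2 with each mouse left out (Ugt3a1 and Ugt3a2 without knockout 1, Gm4951 without knockout 2), and those among related genes, also 0, from 0 to 16, all 16 in endothelial cells and on the interferon list without knockout 2. Among sites, the log2 difference of Akap6 in interstitial cells reversed to -1.0 without control 2 (3.47 without control 1). The number of all genes called moved by over 1.5 times in several fits: in the TAL, 2 became 129 with the replicate block, 91 without knockout 1, 72 without a filter on low counts and 0 without control 2, and in endothelial cells, 2 became 61 without knockout 2 and 46 without the filter. The proximal tubule went from 1 to 20 by DESeq2.

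Mice of both groups carry the numbers 1 and 2, but the labels give no pairing. Deviations from the group means correlated between same-numbered mice (r = 0.56 in the TAL, 0.43 in endothelial cells, 0.47 in the proximal tubule, 0.50 in interstitial cells). With the replicate number as a block (a replicate block), 4 members were called (Sgcz, Npas3, Col5a2 and Ranbp3l, with Ranbp3l in place of Gm6213, since 0 endothelial genes were called), 2 neighbours (Slc39a10 and Nadk2) and 4 related genes (Dtnb, Plod2, Lum and Smad6).

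With 2 mice a group, a moderate difference can be missed. Gm6213, Akap6 and Gm4841 rest on few UMIs, and free RNA limits shares under about 1%. For Sgcz the limit is higher, since its share in the proximal tubule, taken as stray RNA, was above 1% in every mouse.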
